A study of Mus musculus with 15 samples.

Results

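The 42 genes described here act in DNA replication and in the synthesis of the deoxynucleotides (dNTPs) that replication consumes. They were taken by symbol from the 25239 genes of the deposited count table, without use of their values. All 42 passed the filter on low counts and are among the 17835 genes tested. They were measured by RNA immunoprecipitation and sequencing (RIP-seq) in ST2 cells, a stromal line from mouse bone marrow. Cells received medium or IL-17 at 200 ng/mL for 3 h, were fixed with 1% formaldehyde, and were lysed. The lysates were precipitated with an antibody to the RNA-binding protein Arid5a, or with control mouse IgG2b. The 4 groups were the IgG RIP in medium (4 libraries), the Arid5a RIP in medium (4 libraries), the IgG RIP with IL-17 (3 libraries, numbered 2, 3 and 4) and the Arid5a RIP with IL-17 (4 libraries). The labels name no genetic change, and every library comes from this single line. They do not say whether the libraries of a group came from separate cultures, so the p-values measure the spread between these libraries, which may be technical. No library of unprecipitated RNA was analysed here. A difference between IL-17 and medium within a RIP therefore cannot be told apart from a difference in the RNA held by the cells, and fewer cells of a kind cannot be told apart from less RNA per cell.

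As background, replication starts where the origin recognition complex, with Cdc6 and Cdt1, loads the ring-shaped MCM helicase onto DNA before S phase. Cdc45 and the GINS complex join MCM to form the active helicase, primase with DNA polymerase alpha lays down primers, and replication factor C loads the sliding clamp PCNA for polymerases delta and epsilon. Ribonucleotide reductase, built from the large subunit Rrm1 and the small subunit Rrm2, makes the deoxynucleotides. In dividing cells many of these genes are transcribed together around the start of S phase, under E2F factors.

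Of the stromal markers of the labelled cell some were high and some near the level of the markers of other cells. *Col1a1* and *Vim* had medians of 7810 and 7041 CPM (counts scaled to library size, here with TMM factors), and *Cxcl12* 1794 CPM. *Thy1*, *Alpl* and *Postn* had medians of 2.78, 3.65 and 6.42 CPM, and *Alpl* and *Postn* were each at 0 in 1 library. Among the markers of other cells, *Cd14* had a median of 5.95 CPM and *Krt8* of 7.22 CPM. The 12 stromal markers summed to 16959 to 24201 CPM. Of 11 leukocyte markers 6 were tested, and their list summed to at most 33.0 CPM. The 6 endothelial markers summed to at most 41.95 CPM and the 6 epithelial markers to at most 86.5 CPM. Library totals ran from 939139 counts (IgG medium 2) to 5713913 counts (Arid5a IL-17 3). Counts on olfactory and vomeronasal receptor genes, taken as silent in this line, differed between groups: 1986 to 3090 CPM in the IgG medium group, 3234 to 4776 CPM in the Arid5a medium group, 2381 to 3371 CPM in the IgG IL-17 group and 1408 to 4062 CPM in the Arid5a IL-17 group. Their part in the results was not tested.

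To show the regulatory sequence behind these genes, the RefSeq promoters of GRCm38.p6 (the assembly called mm10) were searched, each from 250 bases before to 50 bases after an annotated start. Of the 42 genes, 34 have an entry. The E2F-like element was taken as TTTCGCGC, TTTGGCGC, TTTCCCGC or TTTGCCGC on either strand, where neighbouring matches may overlap, and the CCAAT box as CCAAT on either strand. At the first listed start, 12 of the 34 (35.3%) held an E2F-like element, against 2.32% of the 27025 genes with a promoter entry and 3.34% of the other genes tested. Of 36 other replication genes with an entry, 8 (22.2%) held it. A CCAAT box was found in 22 (64.7%), against 37.9% of all entries, 38.6% of the other genes tested and 41.7% of the other replication genes. Counting every listed start, 13 of the 34 held the E2F-like element, 8 held both and 7 held neither. These shares describe the letters of the window only.

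The promoters of the 5 genes with the smallest p in any comparison are printed from 5′ to 3′ on the gene's own strand, with motif matches in capitals. *Dut* (chr2:125247265-125247564, plus strand) and *Tyms* (chr5:30073576-30073875, minus strand) had no match, and the search does not bear on other forms of the elements. The *Dut* window belongs to an annotated start inside the gene model, which begins at 125247248. The sequence before the start of that model is therefore not printed, and the lack of a match does not describe it. *Rrm2* (chr12:24708004-24708303, plus strand) had 1 CCAAT box from -50 to -46 relative to the first transcribed base, and *Prim1* (chr10:128014965-128015264, plus strand) had 1 from -9 to -5. *Mcm6* (chr1:128359656-128359955, minus strand) had 3 E2F-like matches, of which the pair from -110 to -103 and from -106 to -99 overlap and the other lies from -47 to -40, and 2 CCAAT boxes on the opposite strand.
Dut: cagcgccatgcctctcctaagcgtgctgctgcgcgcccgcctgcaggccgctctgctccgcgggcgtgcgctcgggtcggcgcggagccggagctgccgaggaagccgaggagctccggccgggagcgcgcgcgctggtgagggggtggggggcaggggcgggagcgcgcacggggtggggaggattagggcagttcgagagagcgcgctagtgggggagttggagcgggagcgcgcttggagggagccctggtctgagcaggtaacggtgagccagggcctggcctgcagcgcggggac
Rrm2: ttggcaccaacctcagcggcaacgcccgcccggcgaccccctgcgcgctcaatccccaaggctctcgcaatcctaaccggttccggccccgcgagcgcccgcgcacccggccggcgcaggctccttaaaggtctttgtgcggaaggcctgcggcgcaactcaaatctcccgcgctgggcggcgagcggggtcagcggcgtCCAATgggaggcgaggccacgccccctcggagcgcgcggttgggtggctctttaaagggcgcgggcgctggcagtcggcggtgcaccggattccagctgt
Prim1: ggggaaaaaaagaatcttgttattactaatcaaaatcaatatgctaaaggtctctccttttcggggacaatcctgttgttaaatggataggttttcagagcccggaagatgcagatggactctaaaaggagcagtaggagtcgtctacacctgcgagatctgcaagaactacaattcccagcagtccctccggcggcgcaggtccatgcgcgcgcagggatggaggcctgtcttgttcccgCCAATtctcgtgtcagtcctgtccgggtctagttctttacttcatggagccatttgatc
Mcm6: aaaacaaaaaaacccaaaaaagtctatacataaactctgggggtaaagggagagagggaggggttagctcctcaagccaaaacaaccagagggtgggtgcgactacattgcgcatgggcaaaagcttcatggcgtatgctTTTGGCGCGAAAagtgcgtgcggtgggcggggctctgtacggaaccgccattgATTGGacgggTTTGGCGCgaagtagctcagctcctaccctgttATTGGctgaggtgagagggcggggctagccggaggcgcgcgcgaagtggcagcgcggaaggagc
Tyms: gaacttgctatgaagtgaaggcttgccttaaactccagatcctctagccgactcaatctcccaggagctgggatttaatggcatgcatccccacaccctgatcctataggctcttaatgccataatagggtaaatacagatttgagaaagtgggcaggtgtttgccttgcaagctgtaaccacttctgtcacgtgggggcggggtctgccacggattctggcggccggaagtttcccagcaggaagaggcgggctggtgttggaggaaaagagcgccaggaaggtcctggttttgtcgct

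Per transcript length, these mRNAs were among the better represented in the precipitates. The median over the 42 genes of their median FPKM (fragments scaled to transcript length and library size, the authors' values, used here only to set genes against each other) was 30.14, against 4.37 over the genes tested, and even the lowest gene stood at the 58.4th percentile of the genes tested. *Pcna*, the clamp, led with a median of 176 FPKM over the 15 libraries. *Rrm2* followed with 110 FPKM (lowest 75.2, highest 204). The 6 subunits of the MCM helicase lay between 57.0 FPKM for *Mcm5* and 87.3 FPKM for *Mcm6*. The ribonucleotide reductase subunits differed, with *Rrm1* at 66.5 FPKM against 110 FPKM for *Rrm2*. The lowest levels were those of *Orc1* (6.43 FPKM), *Gins3* (6.50 FPKM) and *Pole2* (9.16 FPKM), and *Orc1* and *Rfc5* had 0 counts in the shallowest library, IgG medium 2.

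**Figure D1:**
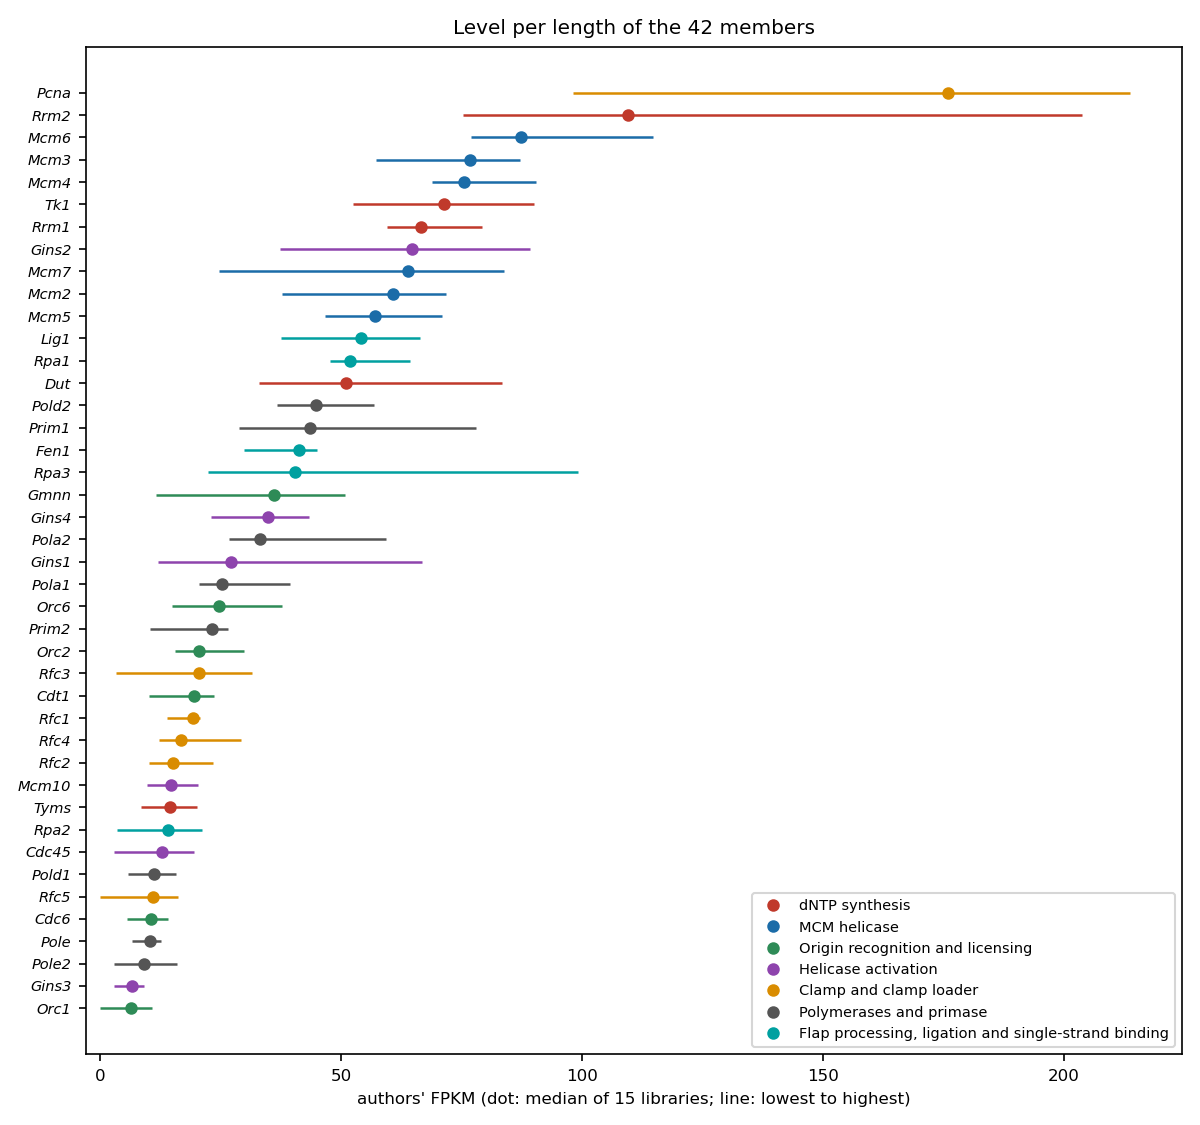
Level per length of the 42 genes in the authors' FPKM; dots are the median of 15 libraries, lines run from the lowest to the highest library, and colours mark the role. *Pcna* and *Rrm2* lead with medians of 176 and 110 FPKM, and *Orc1* is lowest at 6.43 FPKM.

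Few of the 42 mRNAs passed the test between groups. A gene is called where edgeR's quasi-likelihood test gave a Benjamini-Hochberg adjusted p below 0.05 over all genes tested, and folds are log2 values ± the standard error (SE) of that fit. In medium, 1 of 42 was lower with the Arid5a antibody than with IgG, *Rrm2* at -0.74 ± 0.17 (adjusted p = 0.0307), and 0 were higher. Among all genes tested, 0.572% were called lower and 0.0561% higher. Of the 42, 9 were lower and 1 higher at an unadjusted p below 0.05, against 8.28% and 4.50% of all genes. The 9 became 3, 2 and 2 under upper-quartile factors, library totals and TMM factors from well-expressed genes (average log2 CPM at or above 5), with 1 higher in each. Of the 5389 well-expressed genes, 1208 were lower and 72 higher at that p in the reported fit. With IL-17, 0 of the 42 were called between the Arid5a and IgG RIPs, where 0.0673% of all genes were (0.0561% higher and 0.0112% lower). At an unadjusted p below 0.05, 4 were higher and 0 lower, against 4.74% and 4.21% of all genes. Of the 5389 well-expressed genes, 688 were higher and 71 lower. Under the 3 other scalings 1 of the 42 was higher in each, and 0, 0 and 2 were lower. DESeq2 called 0 of the 42, and limma voom with sample quality weights called *Dut*, where it called 2.69% of all genes. The interaction, the change of the Arid5a-to-IgG ratio with IL-17, also gave 0 calls among the 42 and 0.976% among all genes (0.869% higher and 0.107% lower). At an unadjusted p below 0.05, 11 of the 42 were higher and 0 lower, against 9.51% and 6.77% of all genes. Of the 5389 well-expressed genes, 1477 were higher and 46 lower. Under the 3 other scalings, in the same order, these 11 became 6, 4 and 4, with 0, 1 and 1 lower. For the interaction DESeq2 called 0 of the 42, and voom called 9, where voom called 9.27% of all genes.

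Within a precipitate, IL-17 was followed by 1 call in each antibody, for different genes. In the Arid5a RIP *Dut* was higher, at 0.81 ± 0.17 (adjusted p = 0.00319), and 0 were lower, while 5.65% of all genes were called, 4.84% higher and 0.813% lower. At an unadjusted p below 0.05, 7 of the 42 were higher and 0 lower, against 13.1% and 9.18% of all genes. Of the 5389 well-expressed genes, 2104 were higher and 109 lower. Under the 3 other scalings 1 of the 42 was higher in each, and 1, 1 and 2 were lower. Voom called 11 of the 42 here, a smaller share than the 41.7% it called of all genes. In the IgG RIP *Rrm2* was lower, at -0.78 ± 0.18 (adjusted p = 0.0353), and 0 were higher, while 0.493% of all genes were called, 0.235% lower and 0.258% higher. At an unadjusted p below 0.05, 6 of the 42 were lower and 0 higher, against 6.12% and 5.03% of all genes. Of the 5389 well-expressed genes, 658 were lower and 353 higher. Under the other scalings 6, 6 and 7 of the 42 were lower with 1, 2 and 1 higher. The *Rrm2* call in the IgG RIP and that in medium share the 4 IgG medium libraries. The counts moved with single libraries, and so did those over all genes. Within the Arid5a RIP 2 of the 42 were called without IgG medium 1 (5.99% of all genes), 3 without IgG medium 2 (10.2%) or without IgG IL-17 3 (6.63%), and 4 without IgG IL-17 4 (7.93%) or without Arid5a IL-17 4 (12.8%), *Dut* among them each time. *Dut* was also called between the RIPs with IL-17 when IgG medium 2 (0.156% of all genes called) or IgG IL-17 3 (0.175%) was left out. For the interaction 4 of the 42 were called without IgG medium 1 (2.50% of all genes), 1 without IgG IL-17 3 (1.14%) and 5 without Arid5a IL-17 4 (4.06%).

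**Figure D2:**
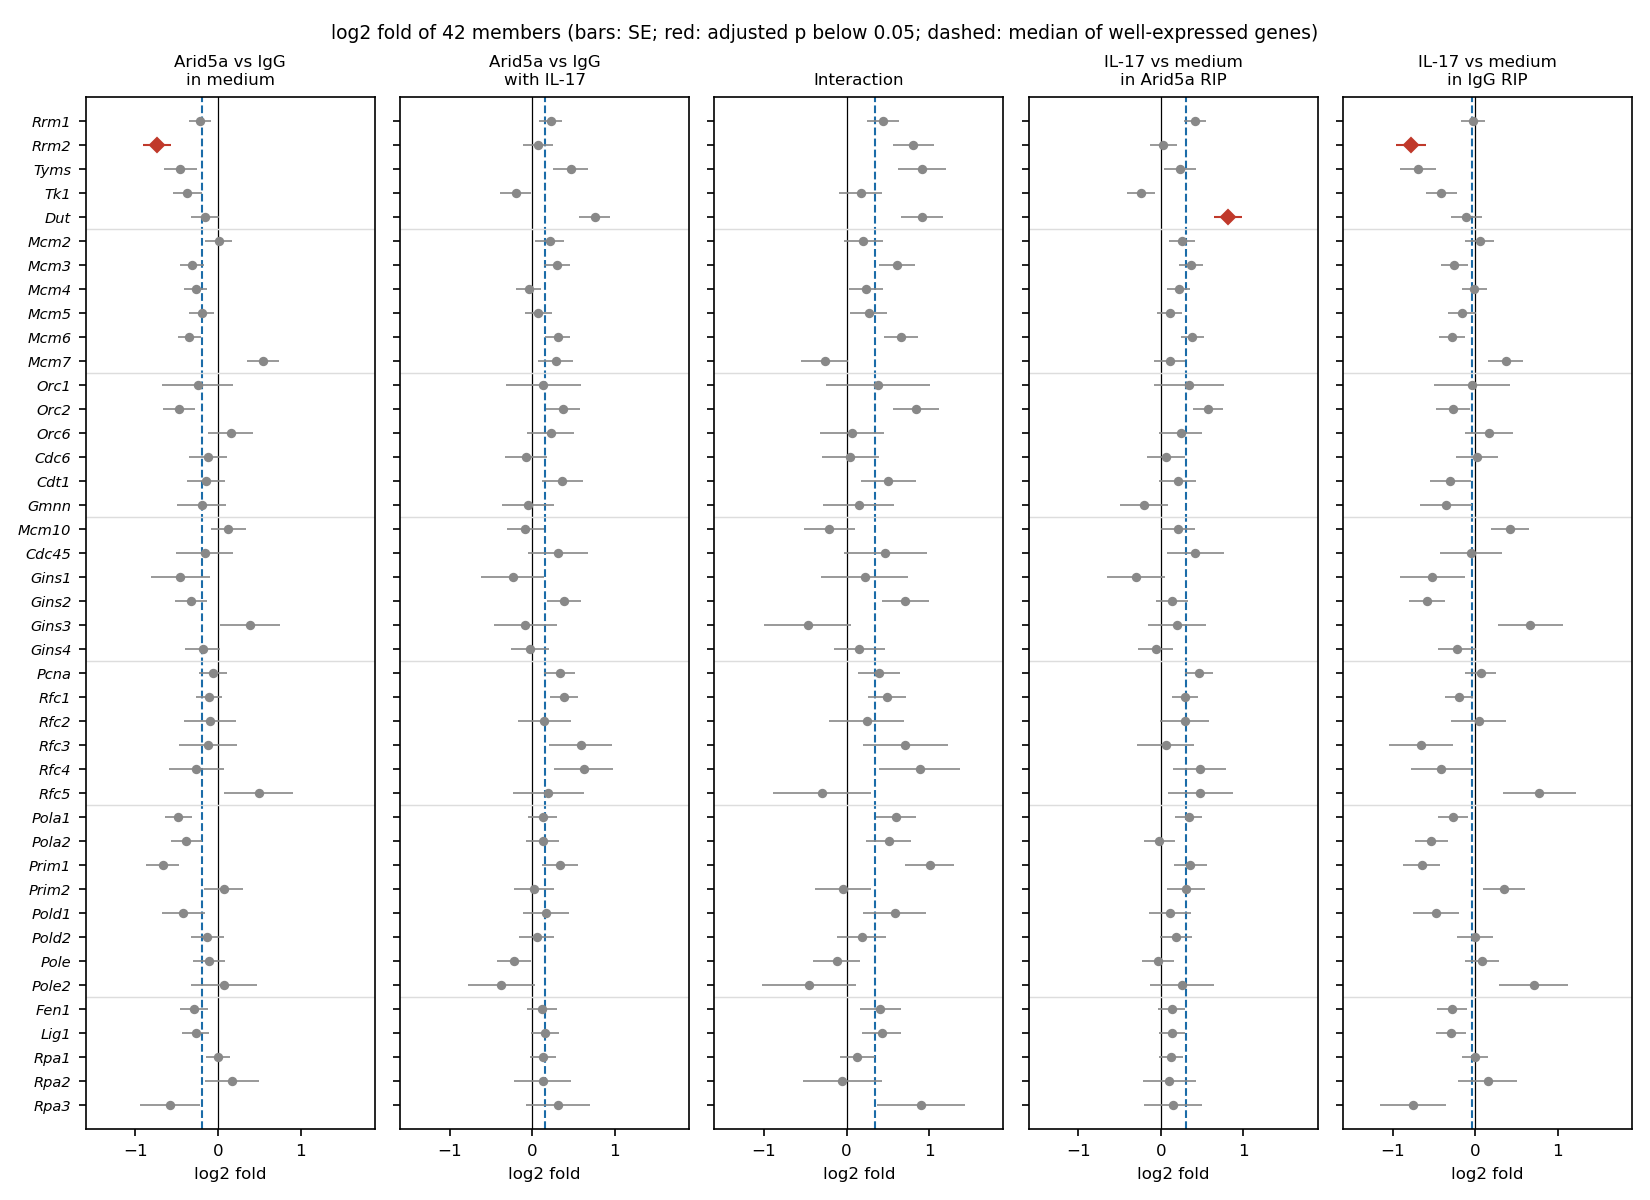
Log2 fold (x axis) of each of the 42 genes (rows, grouped by role) in the 5 comparisons; bars are the SE of the edgeR fit, red diamonds are calls and the dashed line is the median of 5389 well-expressed genes. *Rrm2* in medium (-0.74), *Dut* with IL-17 in the Arid5a RIP (0.81) and *Rrm2* with IL-17 in the IgG RIP (-0.78) are the 3 calls.

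*Rrm2*, the small subunit whose supply limits ribonucleotide reductase, lies at chr12:24708254-24714146 and overlaps no other gene model. *Rrm2* stood at 239, 376, 443 and 284 CPM in libraries 1 to 4 of the IgG medium group and at 214, 222, 190.0 and 176 CPM in those of the Arid5a medium group. After IL-17, *Rrm2* had 203, 195 and 185 CPM in IgG libraries 2 to 4 and 213, 231, 231 and 141 CPM in Arid5a libraries 1 to 4. The IgG medium group was high and wide, with all of its libraries above every library of the other 3 groups, which overlapped each other. The group means were 336 ± 91.4 CPM (SD, n = 4) for IgG in medium, 200.3 ± 21.3 CPM (n = 4) for Arid5a in medium, 194 ± 8.84 CPM (n = 3) for IgG with IL-17 and 204 ± 42.7 CPM (n = 4) for Arid5a with IL-17. Between the Arid5a RIPs with IL-17 and in medium the fold was 0.03 ± 0.17 (adjusted p = 0.929), and between the Arid5a and IgG RIPs with IL-17 it was 0.07 ± 0.18 (adjusted p = 0.933). The interaction of 0.81 ± 0.24 (adjusted p = 0.0913) did not pass in the reported edgeR fit. Voom called it, with 9.27% of all genes. So did edgeR in 2 of 15 fits that left out 1 library, with 2.50% and 4.06% of all genes.

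Both *Rrm2* calls were lost when single libraries were left out, while the fold stayed between -0.88 and -0.57 in medium and between -0.92 and -0.61 in the IgG RIP over the 15 such fits. The adjusted p in medium became 0.12 without IgG medium 2, 0.229 without IgG medium 3, and 0.0501, 0.124, 0.19 and 0.116 without Arid5a medium 1, 2, 3 and 4, and it was 0.104 to 0.147 under upper-quartile factors, library totals and factors from well-expressed genes, with folds of -0.58, -0.55 and -0.55. Calls over all genes fell as well: in these fits 0% to 0.364% of all genes were called in medium, against 0.628% in the reported fit. In the IgG RIP the adjusted p became 0.0717 and 0.188 without IgG medium 2 and 3, 0.107, 0.129 and 0.203 without IgG IL-17 2, 3 and 4, 0.0517 without Arid5a medium 3 and 0.0505 without Arid5a IL-17 1, and voom gave a fold of -0.67 with an adjusted p of 0.106. Of all genes, 0.23% to 0.485% were called in these fits of the IgG RIP, against 0.493% in the reported fit.

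*Rrm1*, the large subunit (chr7:102441695-102469771), had another order of groups. *Rrm1* stood at 255, 245, 292 and 241 CPM in libraries 1 to 4 of the IgG medium group and at 217, 199, 234 and 238 CPM in those of the Arid5a medium group. After IL-17, *Rrm1* had 243, 257 and 262 CPM in IgG libraries 2 to 4 and 297, 319.9, 324 and 245 CPM in Arid5a libraries 1 to 4. In medium every Arid5a library lay below every IgG library, by a fold of -0.22 ± 0.13 (adjusted p = 0.508), and with IL-17 every Arid5a library lay above every Arid5a library in medium, by 0.42 ± 0.13 (adjusted p = 0.0532). Neither passed in the reported edgeR fit, and in the IgG RIP the fold with IL-17 was -0.025 ± 0.14 (adjusted p = 0.977). The fold within the Arid5a RIP was called by edgeR in 4 of 15 fits that left out 1 library, with 6.63% to 12.8% of all genes. Within the Arid5a RIP *Rrm1* was called by DESeq2, with 8.31% of the genes it gave an adjusted p, and by voom, with 41.7% of all genes. Voom also called it for the interaction, with 9.27% of all genes. The count ratio of *Rrm2* to *Rrm1* within a library needs no scaling between libraries. It was 0.939, 1.54, 1.52 and 1.18 in the IgG medium group, 0.984, 1.11, 0.812 and 0.737 in the Arid5a medium group, 0.833, 0.761 and 0.706 in the IgG IL-17 group, and 0.716, 0.723, 0.713 and 0.576 in the Arid5a IL-17 group. The ratio overlapped between the RIPs in medium, whereas both IL-17 groups were below the IgG medium group. The Arid5a IL-17 libraries were also all below the Arid5a medium libraries. This ratio was chosen after its values were seen and carries no test.

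*Dut*, the dUTPase that keeps uracil out of DNA and supplies the precursor of dTMP, lies at chr2:125247248-125259049. *Dut* stood at 101, 139, 77.6 and 112 CPM in libraries 1 to 4 of the IgG medium group and at 86.7, 97.5, 95.2 and 101 CPM in those of the Arid5a medium group. After IL-17, *Dut* had 88.7, 129.9 and 76.6 CPM in IgG libraries 2 to 4 and 168, 192, 153 and 153 CPM in Arid5a libraries 1 to 4. Every Arid5a library with IL-17 was above every library of the other 3 groups, which overlapped. The means were 108 ± 25.5, 95.0 ± 6.02, 98.4 ± 28.0 and 167 ± 18.1 CPM (SD) in the order just given. Between the Arid5a and IgG RIPs with IL-17 the fold was 0.76 ± 0.19 (adjusted p = 0.124) and the interaction was 0.91 ± 0.25 (adjusted p = 0.0644). Neither of these passed in the reported edgeR fit. Voom called *Dut* in both, with 2.69% and 9.27% of all genes. The call within the Arid5a RIP held in all 15 fits that left out 1 library, but it was lost with plain library totals (0.56, adjusted p = 0.0769) and with factors from well-expressed genes (0.50, adjusted p = 0.101). Under these 2 scalings 1.69% and 1.81% of all genes were called, against 5.65% in the reported fit. As a share of the counts of the 42 genes, *Dut* took 3.725% to 4.74% in the Arid5a IL-17 libraries, 2.50% to 3.03% in the Arid5a medium libraries, 1.82% to 3.58% in the IgG medium libraries and 2.13% to 3.84% in the IgG IL-17 libraries. The single library IgG IL-17 3, at 3.84%, overlapped the Arid5a IL-17 group.

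*Tyms*, thymidylate synthase, makes dTMP from the dUMP that dUTPase yields, and lies at chr5:30038546-30073645. *Tyms* stood at 55.8, 76.4, 63.6 and 63.4 CPM in libraries 1 to 4 of the IgG medium group and at 50.2, 56.6, 44.3 and 36.8 CPM in those of the Arid5a medium group. After IL-17, *Tyms* had 38.5, 48.3 and 32.1 CPM in IgG libraries 2 to 4 and 58.7, 57.0, 57.1 and 46.4 CPM in Arid5a libraries 1 to 4. The IgG libraries with IL-17 lay below all IgG medium libraries, with a fold of -0.69 ± 0.22 (adjusted p = 0.163), and the interaction was 0.92 ± 0.29 (adjusted p = 0.105). Neither passed in the reported edgeR fit. DESeq2 called *Tyms* within the IgG RIP, with 2.93% of the genes it gave an adjusted p, and voom called it for the interaction, with 9.27% of all genes. The table also lists *Tyms-ps*, a pseudogene copy with 0 to 20 counts against 67 to 298 for *Tyms*, so some reads could be placed in either row. The fifth gene of this role is *Tk1*, the thymidine kinase of the salvage route. Its means were 103 ± 11.8 CPM in the IgG medium, 79.2 ± 13.1 in the Arid5a medium, 77.4 ± 18.7 in the IgG IL-17 and 67.0 ± 7.29 CPM in the Arid5a IL-17 group, with no call. Between the Arid5a RIPs with IL-17 and in medium its fold was -0.24 ± 0.17, the 1 value of the 5 below 0, where 3 of the 5 were below 0 with factors from well-expressed genes.

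**Figure D3:**
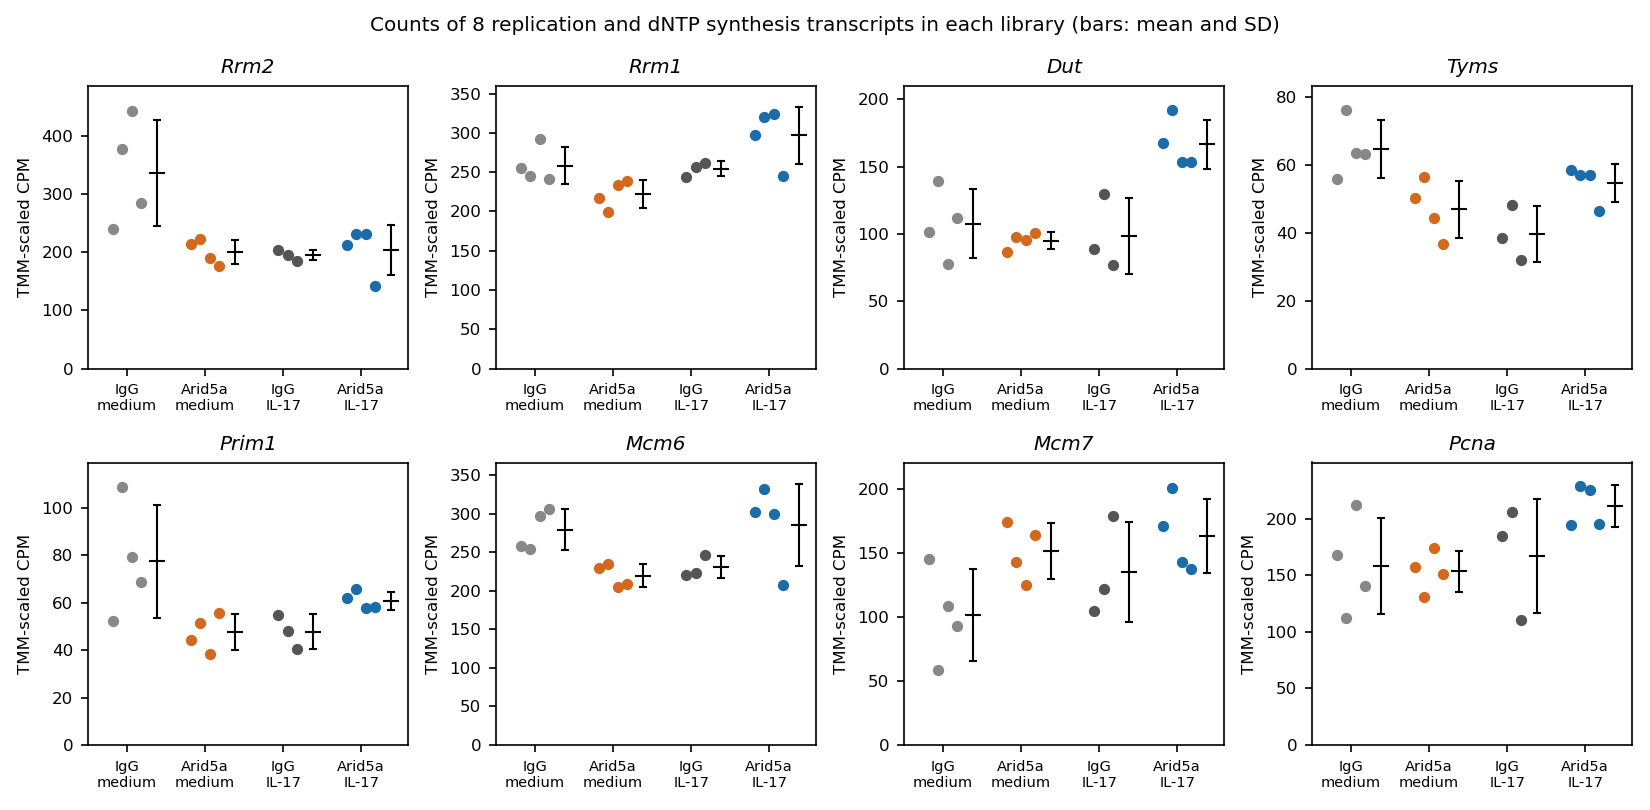
TMM-scaled CPM (y axes, from 0) of 8 mRNAs in each of 15 libraries by group; points are libraries and bars are the mean and SD. *Rrm2* is highest in the IgG medium group (239 to 443 CPM), *Dut* in the Arid5a IL-17 group (153 to 192 CPM), and the other 6 were not called by edgeR in the reported fit.

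In the reported edgeR fit 0 of the 6 MCM helicase subunits were called in any comparison. At an unadjusted p below 0.05, 1 was higher (4.50% of all genes) and 2 lower (8.28%) in medium. Between the RIPs with IL-17, 1 was higher (4.74%), and 2 were for the interaction (9.51%) and 2 within the Arid5a RIP (13.1%). Of the 5389 well-expressed genes, 72, 1208, 688, 1477 and 2104 reached it in the same order. Voom called *Mcm3* and *Mcm6* for the interaction and these with *Mcm2* and *Mcm4* within the Arid5a RIP, where it called 9.27% and 41.7% of all genes, and DESeq2 called 0. All 6 folds within the Arid5a RIP were above 0 (0.11 to 0.38), but only 2 were with factors from well-expressed genes (-0.20 to 0.061). *Mcm6* was the nearest to a call. *Mcm6* stood at 258, 255, 297 and 307 CPM in libraries 1 to 4 of the IgG medium group and at 230.0, 235, 205 and 209 CPM in those of the Arid5a medium group. After IL-17, *Mcm6* had 221, 223 and 247 CPM in IgG libraries 2 to 4 and 302, 332, 300.0 and 208 CPM in Arid5a libraries 1 to 4. In medium the Arid5a libraries lay below all IgG libraries (-0.35 ± 0.14, adjusted p = 0.277), and the IgG libraries with IL-17 also lay below all IgG medium libraries (-0.28 ± 0.15, adjusted p = 0.508). Within the Arid5a RIP the fold was 0.38 ± 0.14 (adjusted p = 0.102), with Arid5a IL-17 4 inside the range of the medium libraries and the other 3 libraries above it.

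In medium the fold of *Mcm7* was above 0, while those of *Mcm3* to *Mcm6* were below 0. *Mcm7* stood at 145, 58.4, 108 and 92.9 CPM in libraries 1 to 4 of the IgG medium group and at 174, 143, 125 and 164 CPM in those of the Arid5a medium group. After IL-17, *Mcm7* had 104, 122 and 178 CPM in IgG libraries 2 to 4 and 171, 201, 143 and 138 CPM in Arid5a libraries 1 to 4. The Arid5a libraries were mostly the higher ones, but IgG medium 1 lay among them, and the fold of 0.55 ± 0.20 (adjusted p = 0.209) did not pass. Without IgG medium 1 it was called (0.77, adjusted p = 0.0311), together with *Prim1* and *Rrm2* on the low side, and 3 of the 42 genes and 1.98% of all genes were then called in medium. The *Mcm7* locus (chr5:138164583-138172111) also holds *Mir106b*, *Mir93* and *Mir25* and overlaps *Ap4m1*, so reads of these could be counted in it.

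For the other subunits, which complete the ring, the groups overlapped in each of the 4 comparisons between groups. *Mcm2* stood at 205, 126, 186 and 186 CPM in libraries 1 to 4 of the IgG medium group and at 207, 162, 169.5 and 177 CPM in those of the Arid5a medium group. After IL-17, *Mcm2* had 167, 175 and 212 CPM in IgG libraries 2 to 4 and 234, 248, 223 and 148 CPM in Arid5a libraries 1 to 4. The largest fold of *Mcm2* was 0.26 ± 0.16 with IL-17 in the Arid5a RIP.

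*Mcm3* stood at 251, 243, 234 and 201 CPM in libraries 1 to 4 of the IgG medium group and at 211, 147, 191 and 198 CPM in those of the Arid5a medium group. After IL-17, *Mcm3* had 220.1, 155 and 210.1 CPM in IgG libraries 2 to 4 and 263, 249.5, 240.1 and 207 CPM in Arid5a libraries 1 to 4. The lowest library of *Mcm3* was Arid5a medium 2. Its fold was -0.31 ± 0.15 in medium and 0.36 ± 0.14 with IL-17 in the Arid5a RIP.

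*Mcm4* stood at 299, 262, 327 and 225 CPM in libraries 1 to 4 of the IgG medium group and at 242, 224, 221 and 235 CPM in those of the Arid5a medium group. After IL-17, *Mcm4* had 257, 248 and 325 CPM in IgG libraries 2 to 4 and 283, 286, 280.5 and 223 CPM in Arid5a libraries 1 to 4. The IgG IL-17 libraries of *Mcm4* lay inside the range of the IgG medium libraries, at a fold of -0.013 ± 0.15. Its Arid5a medium libraries were close together, and 3 of the 4 Arid5a IL-17 libraries lay above them.

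*Mcm5* stood at 233, 191, 221 and 171 CPM in libraries 1 to 4 of the IgG medium group and at 207, 163, 168 and 174 CPM in those of the Arid5a medium group. After IL-17, *Mcm5* had 196, 153 and 200.0 CPM in IgG libraries 2 to 4 and 194, 200.3, 230.3 and 144 CPM in Arid5a libraries 1 to 4. The groups of *Mcm5* overlapped in the 4 comparisons between groups, and its folds ran from -0.20 ± 0.15 in medium to 0.27 ± 0.23 for the interaction.

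Among the genes that recognise and license origins, the reported edgeR fit called 0 of 6 in any comparison. Voom called *Orc2* for the interaction (9.27% of all genes) and within the Arid5a RIP (41.7%). Within the Arid5a RIP edgeR called it in 5 of 15 fits that left out 1 library (5.99% to 12.8% of all genes). For the interaction edgeR called it without IgG medium 1 (2.50%) and without Arid5a IL-17 4 (4.06%). *Orc2*, a core subunit of the origin recognition complex, came closest. *Orc2* stood at 56.9, 96.6, 76.2 and 96.7 CPM in libraries 1 to 4 of the IgG medium group and at 51.1, 57.4, 59.3 and 64.5 CPM in those of the Arid5a medium group. After IL-17, *Orc2* had 62.7, 82.0 and 55.0 CPM in IgG libraries 2 to 4 and 100.2, 90.0, 89.2 and 65.7 CPM in Arid5a libraries 1 to 4. With IL-17 all Arid5a libraries lay above all Arid5a medium libraries, by 0.57 ± 0.19 (adjusted p = 0.0628). *Orc1* and *Orc6*, 2 further subunits, and *Cdc6*, *Cdt1* and the Cdt1 inhibitor *Gmnn* had folds between -0.35 and 0.36 in the 4 comparisons between groups, and their groups overlapped in each. *Orc1* was sparse, with 0 to 139 counts a library.

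Of the 6 helicase activators edgeR called 0 and voom *Gins2* for the interaction, with 9.27% of all genes. *Gins2*, a GINS subunit, had a fold of -0.58 ± 0.21 (adjusted p = 0.255) with IL-17 in the IgG RIP, where its libraries lay below all IgG medium libraries, and one of -0.33 ± 0.20 in medium, where the Arid5a libraries lay below all IgG libraries. *Gins3* was at 0.67 ± 0.39 in the IgG RIP and *Gins1* at -0.52 ± 0.39. Subunits of the same complex thus had folds of opposite sign there, each under 2 SE from 0 for *Gins1* and *Gins3*. *Cdc45* and *Mcm10*, which act at the same step, had folds of 0.42 ± 0.34 and 0.21 ± 0.21 with IL-17 in the Arid5a RIP, and *Gins4* of -0.06 ± 0.21.

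For the clamp and its loader all 6 folds were above 0 within the Arid5a RIP (0.059 to 0.48), which became 3 of 6 with factors from well-expressed genes (-0.24 to 0.16). Between the RIPs with IL-17, 6 of 6 were above 0 (0.15 to 0.62) and 5 of 6 with those factors. In the reported edgeR fit 0 were called, and voom called *Pcna* and *Rfc1* within the Arid5a RIP, where it called 41.7% of all genes. There edgeR called *Pcna* without IgG IL-17 4 (7.93% of all genes) and without IgG medium 2 and IgG IL-17 4 together (13.6%). *Pcna*, the sliding clamp (chr2:132249286-132253180), had the highest median FPKM of the 42. *Pcna* stood at 168, 112, 212 and 141 CPM in libraries 1 to 4 of the IgG medium group and at 158, 131, 174 and 151 CPM in those of the Arid5a medium group. After IL-17, *Pcna* had 185, 206 and 111 CPM in IgG libraries 2 to 4 and 195, 229, 225 and 196 CPM in Arid5a libraries 1 to 4. With IL-17 all Arid5a libraries lay above all Arid5a medium libraries, by 0.46 ± 0.17 (adjusted p = 0.107), while they overlapped the IgG libraries.

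*Rfc1* encodes the large subunit of the clamp loader. *Rfc1* stood at 87.4, 92.1, 80.2 and 81.3 CPM in libraries 1 to 4 of the IgG medium group and at 85.4, 80.5, 80.4 and 69.9 CPM in those of the Arid5a medium group. After IL-17, *Rfc1* had 79.9, 75.3 and 66.0 CPM in IgG libraries 2 to 4 and 101, 102, 93.8 and 89.2 CPM in Arid5a libraries 1 to 4. The Arid5a libraries with IL-17 lay above all IgG IL-17 libraries (0.39 ± 0.17, adjusted p = 0.49) and above all Arid5a medium libraries (0.29 ± 0.15, adjusted p = 0.261). The IgG libraries with IL-17 lay below all IgG medium libraries (-0.20 ± 0.17, adjusted p = 0.729). The 4 small subunits *Rfc2*, *Rfc3*, *Rfc4* and *Rfc5* had means of 9.11 to 22.6 CPM in the 4 groups and SEs of 0.30 to 0.44 in the comparisons between groups. *Rfc3* had its Arid5a IL-17 libraries above all IgG IL-17 libraries (0.59 ± 0.38, adjusted p = 0.673).

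Among the polymerases and primase the reported edgeR fit called 0 of 8 in any comparison. Unadjusted p below 0.05 was reached by 3 lower in medium (8.28% of all genes) and 2 lower with IL-17 in the IgG RIP (6.12%). It was reached by 1 higher in the Arid5a RIP (13.1%) and 2 higher for the interaction (9.51%). Of the 5389 well-expressed genes, 1208, 658, 2104 and 1477 reached it in the same order. DESeq2 called *Prim1* in medium, with 6.90% of the genes it gave an adjusted p. Voom called *Pola1* for the interaction, and *Pola1* and *Prim1* within the Arid5a RIP, where it called 9.27% and 41.7% of all genes. *Prim1*, the catalytic primase subunit that starts every Okazaki fragment (chr10:128015215-128030030), had the largest interaction of the 42. *Prim1* stood at 52.5, 109, 79.5 and 68.9 CPM in libraries 1 to 4 of the IgG medium group and at 44.3, 51.6, 38.5 and 55.7 CPM in those of the Arid5a medium group. After IL-17, *Prim1* had 55.0, 48.0 and 40.7 CPM in IgG libraries 2 to 4 and 61.8, 65.9, 57.6 and 58.3 CPM in Arid5a libraries 1 to 4. Its fold was -0.67 ± 0.20 (adjusted p = 0.124) in medium, -0.65 ± 0.22 (adjusted p = 0.202) with IL-17 in the IgG RIP and 1.01 ± 0.30 (adjusted p = 0.084) for the interaction. IgG medium 2, the shallowest library, was the highest, and without it the fold in medium was -0.48 (adjusted p = 0.328). Without IgG medium 1 edgeR called *Prim1* in medium (-0.82, adjusted p = 0.0234), with 1.98% of all genes. That fit also called it for the interaction, with 2.50% of all genes. With IL-17 all Arid5a libraries lay above all IgG libraries and above all Arid5a medium libraries. Its partner *Prim2* had a fold of 0.068 ± 0.23 in medium and an interaction of -0.048 ± 0.34.

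*Pola1*, the catalytic subunit of polymerase alpha, which extends the primer, is the next gene of this role. *Pola1* stood at 126, 213, 149 and 133 CPM in libraries 1 to 4 of the IgG medium group and at 102, 100.4, 114 and 122 CPM in those of the Arid5a medium group. After IL-17, *Pola1* had 104, 119.8 and 159 CPM in IgG libraries 2 to 4 and 147, 144, 142 and 122 CPM in Arid5a libraries 1 to 4. All Arid5a libraries in medium lay below all IgG libraries, at -0.48 ± 0.17 (adjusted p = 0.188), and IgG medium 2 was again the highest. The accessory subunit *Pola2* was at -0.38 ± 0.19 in medium and -0.53 ± 0.20 with IL-17 in the IgG RIP. The leading-strand and lagging-strand polymerase genes *Pole*, *Pole2*, *Pold1* and *Pold2* had folds from -0.47 to 0.71 in the comparisons between groups, with adjusted p of at least 0.515.

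Of the 5 genes that finish or cover the new strand, edgeR called 0, and 0 had an unadjusted p below 0.05 in any comparison. *Fen1* (the flap nuclease) and *Lig1* (the ligase that seals Okazaki fragments) had folds of -0.29 ± 0.17 and -0.27 ± 0.16 in medium and -0.28 ± 0.19 and -0.29 ± 0.18 with IL-17 in the IgG RIP. The *Fen1* libraries did not overlap in either comparison. The single-strand binding subunits *Rpa1*, *Rpa2* and *Rpa3* had folds of -0.0022 ± 0.14, 0.17 ± 0.33 and -0.59 ± 0.36 in medium. *Rpa1* stood at 146 ± 10.2, 145 ± 13.0, 145 ± 20.7 and 158 ± 17.7 CPM in the IgG medium, Arid5a medium, IgG IL-17 and Arid5a IL-17 groups. *Rpa3* stood at 24.9 ± 13.8, 15.7 ± 7.70, 13.9 ± 3.67 and 17.5 ± 2.21 CPM.

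Read over the set, libraries of 2 groups did not overlap for 6 of 42 genes in medium (*Rrm1*, *Rrm2*, *Mcm6*, *Gins2*, *Pola1* and *Fen1*), all lower in the Arid5a RIP, against 4.05% of all genes tested. With IL-17, 4 genes were higher in the Arid5a RIP without overlap (*Dut*, *Rfc1*, *Rfc3* and *Prim1*), against 5.30%. Within the Arid5a RIP 6 were higher with IL-17 (*Rrm1*, *Dut*, *Orc2*, *Pcna*, *Rfc1* and *Prim1*), against 10.7%, and within the IgG RIP 6 were lower (*Rrm2*, *Tyms*, *Mcm6*, *Gins2*, *Rfc1* and *Fen1*), against 3.32%. In the opposite direction 0 of the 42 were apart in these comparisons, against 5.00%, 4.39%, 9.25% and 4.27% of all genes in the same order. Of the 42, 30 are among the 5389 well-expressed genes. Of these 5389, 600 did not overlap on the low side and 40 on the high side in medium. With IL-17 the numbers were 75 low and 605 high, and within the Arid5a RIP 79 low and 1561 high. Within the IgG RIP they were 343 low and 265 high, a more even split than in the other comparisons.

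The direction of the 42 genes as a group depended on the scaling. With TMM factors from all genes, the median log2 fold of the 42 was -0.19 in medium (9 above 0, 33 below), 0.15 with IL-17 (32 and 10), 0.38 for the interaction (34 and 8), 0.21 with IL-17 in the Arid5a RIP (36 and 6) and -0.18 in the IgG RIP (13 and 29). The median of the well-expressed genes was -0.19, 0.15, 0.34, 0.30 and -0.037 in the same order. Relative to these, the 42 genes were shifted by -0.0020, -0.0020, 0.042, -0.095 and -0.14. With TMM factors from the well-expressed genes, the medians of the 42 were -0.017 (20 above 0, 22 below), -0.014 (20 and 22), 0.043 (22 and 20), -0.10 (12 and 30) and -0.15 (17 and 25). The positive median within the Arid5a RIP thus turned negative, as it did with upper-quartile factors (-0.0046) and library totals (-0.039).

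Over 24 alternative fits the shift against well-expressed genes stayed between -0.12 and -0.080 within the Arid5a RIP and between -0.21 and -0.059 within the IgG RIP, where the extremes came from leaving out IgG IL-17 2 and IgG IL-17 4. In medium it ran from -0.038 to 0.014, with IL-17 from -0.031 to 0.042, and for the interaction from -0.083 to 0.10. No test of these shifts was made.

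**Figure D4:**
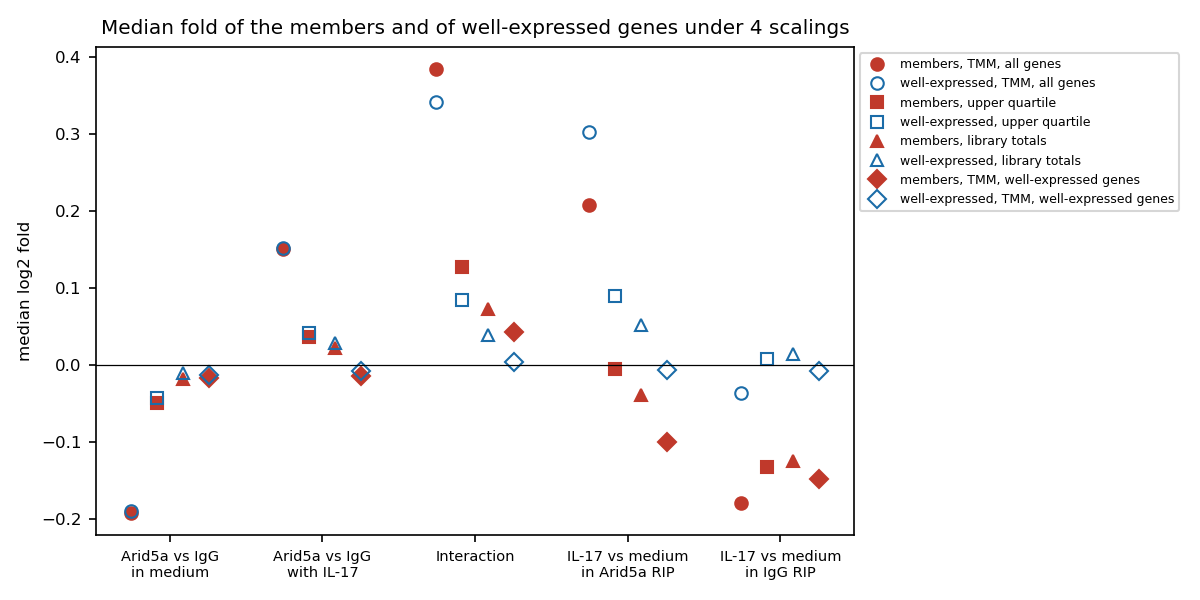
Median log2 fold (y axis) of the 42 genes (filled) and of 5389 well-expressed genes (open) in the 5 comparisons under 4 scalings, marked by shape. The 2 medians move together with the scaling, and within the Arid5a RIP that of the 42 genes passes from 0.21 to -0.10.

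Shares within a library bypass the scaling. Of the counts on well-expressed genes and these 42 genes, the 42 took 0.414% to 0.436% in the IgG medium group and 0.413% to 0.443% in the Arid5a medium group, which overlapped. They took 0.382% to 0.4075% in the IgG IL-17 group, below all libraries in medium, and 0.3865% to 0.423% in the Arid5a IL-17 group. These shares were computed after values were seen and carry no test. The summed CPM of the 42 was 4102.5 to 4313 in Arid5a IL-17 libraries 1 to 3 and 3237 in library 4, the library with 4062 CPM on silent receptor genes against 1408 to 1806 CPM in the other 3. Without Arid5a IL-17 4 the counts of members called rose to 4 within the Arid5a RIP (*Dut*, *Mcm6*, *Orc2* and *Rrm1*) and to 5 for the interaction (*Dut*, *Mcm6*, *Orc2*, *Rrm2* and *Tyms*). Over all genes the calls rose from 5.65% to 12.8% and from 0.976% to 4.06% in these 2 comparisons.

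**Figure D5:**
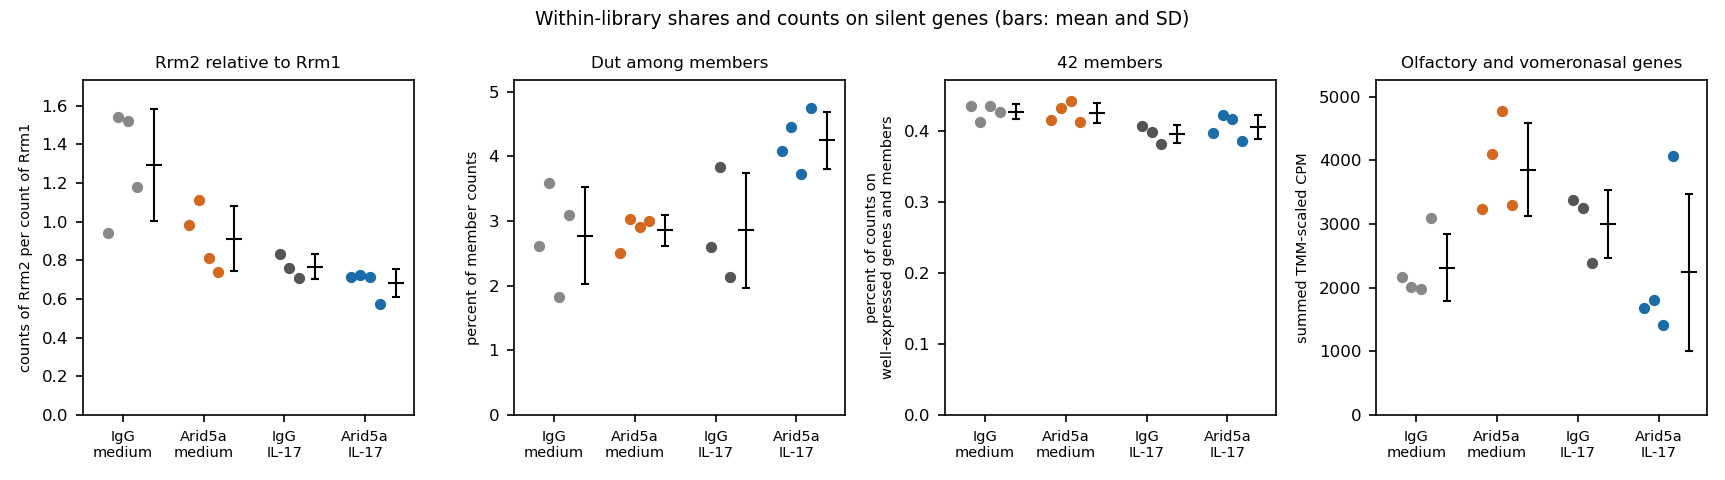
Values within each library by group: counts of *Rrm2* per count of *Rrm1*, *Dut* as percent of the counts of the 42 genes, the 42 genes as percent of the counts on well-expressed genes and themselves, and summed TMM-scaled CPM of olfactory and vomeronasal genes; points are libraries and bars the mean and SD. All IL-17 libraries lie at or below 0.833 *Rrm2* counts per *Rrm1* count, and Arid5a IL-17 4 stands at 4062 CPM of silent genes.

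Genes of the same pathways outside the 42 were described from 3 lists. Of 44 other replication genes, 43 were tested, with a median fold within the Arid5a RIP of 0.19, against -0.12 over all genes tested and 0.30 over the well-expressed genes. In that comparison 3 were called higher and 0 lower, where 4.84% of all genes were called higher: *Top1*, the topoisomerase that relaxes supercoils ahead of the fork (0.63 ± 0.14, adjusted p = 0.00571), *Rif1*, a regulator of replication timing (0.54 ± 0.15, adjusted p = 0.0254), and *Supt16*, a subunit of the histone chaperone FACT (0.41 ± 0.13, adjusted p = 0.0491). *Slbp*, which binds the stem-loop of histone mRNAs, was the only gene of this list called for the interaction (1.09 ± 0.25, adjusted p = 0.0263), with means of 163 ± 33.2 and 101 ± 13.1 CPM in the IgG and Arid5a RIPs in medium and 101 ± 28.7 and 135 ± 13.7 CPM with IL-17. Of all genes, 0.869% were called higher for the interaction. No gene of this list was called in the other 3 comparisons.

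Of 36 other nucleotide synthesis genes, 34 were tested, with a median of 0.33 with IL-17 in the Arid5a RIP. In that comparison 4.84% of all genes and 833 of the 5389 well-expressed genes were called higher, and 5 of the 34 were. They included *Gmps*, which makes GMP (0.81 ± 0.17, adjusted p = 0.00319), *Nme2*, a nucleoside diphosphate kinase (0.75 ± 0.15, adjusted p = 0.00161), *Adss*, on the way to AMP (0.70 ± 0.16, adjusted p = 0.00741), and *Ctps*, which makes CTP (0.65 ± 0.17, adjusted p = 0.0167). *Gmps* had 63.4 ± 5.63 CPM in the Arid5a medium group and 111 ± 18.3 CPM in the Arid5a IL-17 group. *Nme1*, a further kinase of this family and the fifth of these genes, was also lower in the Arid5a RIP in medium (-0.68 ± 0.16, adjusted p = 0.0348) and was called for the interaction (1.04 ± 0.23, adjusted p = 0.0223). Of all genes, 0.572% were called lower in medium and 0.869% higher for the interaction. Of the 5389 well-expressed genes, 100 and 152 were. *Nme1* and *Nme2* are close neighbours of similar sequence, so their counts are uncertain. All 30 G1/S regulators listed were tested, with a median of 0.16 and 2 called higher in the Arid5a RIP with IL-17, the cyclin-dependent kinase gene *Cdk6* (0.64 ± 0.17, adjusted p = 0.0231) and *Myc* (0.63 ± 0.19, adjusted p = 0.0396), and 0 in the other comparisons. These calls also moved with the scaling. Of the 10 genes of the 3 lists called higher with IL-17 in the Arid5a RIP, 2 (*Nme2* and *Gmps*) were called when counts were scaled by library totals or upper quartiles, and 0 when factors came from well-expressed genes. The call of *Nme1* in medium was lost under each of these. No gene at all was called for the interaction under upper-quartile factors, library totals or factors from well-expressed genes, which covers *Slbp* and *Nme1*.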

How the data were processed

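RNA immunoprecipitates of ST2 cells were sequenced in 15 libraries from SMART-Seq Stranded kits, per the labels' protocols. The authors deposited expected counts and FPKM per gene; STAR 2.7.9, RSEM 1.3.1, DESeq2 1.36.0 and the mm10 build stand in the submitters' processing notes, and the strand setting is not given in the sources used here. The RSEM origin of the counts was inferred from values that were not whole (2.66% to 10.3% of a library).

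Counts were rounded and fitted in R 4.3.3 with edgeR 4.0.16 (filterByExpr by group, TMM factors, robust quasi-likelihood, 4 group means over 15 libraries). Adjusted p-values (Benjamini-Hochberg) run over all 17835 genes tested, with calls below 0.05. Alternatives used DESeq2 1.42.0, limma 3.58.1 voom, other scalings and filters, and libraries left out. The fits were tested on simulated data with changes of random sign in single genes. These data held no shift of the well-expressed genes as a group, so that test does not bear on the choice of scaling.

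The members were taken by symbol and not by their values, but they and the lists were chosen with earlier results of these data known. Values per library are given for members called, for the 3 smallest p per comparison, and for *Rrm1*, *Rrm2*, *Mcm2* to *Mcm7* and *Pcna*; from each other list at most 4 called genes per comparison are named. The RefSeq gene table matched all 42 symbols, and 17 overlap another gene model.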

Additional observations from a re-analysis of the deposited data

Results flagged for a closer look

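In 54 groups of 4 libraries, over the 15 members given library by library and summed measures, 4 values stood far from the other 3 of their group by Dixon's criterion, which chance meets in about 1 of 20 groups. In Arid5a IL-17 4, *Tyms* was at 46.4 CPM, where the other 3 libraries had 57.0 to 58.7 CPM. *Mcm4* was at 223 CPM in the same library, where the others had 280.5 to 286 CPM. This library also had 4062 CPM on olfactory and vomeronasal receptor genes, against 1408 to 1806 CPM in the other 3. In IgG medium 4 these receptor genes summed to 3090 CPM, against 1986 to 2161 CPM in the others. Whether the low *Tyms* and *Mcm4* values of Arid5a IL-17 4 go with its receptor gene counts was not tested.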

How the results depend on the processing

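In medium the number of members called (1, with 0.628% of all genes) became 0 under upper-quartile factors (0.0224%), library totals (0.0729%) and TMM factors from well-expressed genes (0%). It also became 0 without IgG medium 2 and IgG IL-17 4 together (0.0787%), and 2 with DESeq2 (6.90% of the genes it gave an adjusted p). With IL-17 (0) it became 1 with voom (2.69% of all genes), and for the interaction (0) it became 9 with voom (9.27%). Within the Arid5a RIP (1, with 5.65% of all genes in the reported fit) it was 0 under library totals (1.69%) and TMM factors from well-expressed genes (1.81%). It was 2 with DESeq2 (8.31%), 11 with voom (41.7%) and 5 without IgG medium 2 and IgG IL-17 4 together (13.6%). Within the IgG RIP (1, with 0.493%) it was 2 with DESeq2 (2.93%), 0 with voom (0.303%) and 0 without that pair (0.399%). Leaving out single libraries gave 0 to 3 calls in medium (0% to 1.98% of all genes) and 0 to 1 with IL-17 (0.0106% to 0.432%). It gave 0 to 5 for the interaction (0% to 4.06%), 1 to 4 within the Arid5a RIP (1.73% to 12.8%) and 0 to 1 within the IgG RIP (0.23% to 1.45%). Where a count moved, the cause was not tested. No result reversed its direction while called. *Rrm2* was called in 14 of 24 alternatives in medium and 15 of 24 within the IgG RIP, and *Dut* in 22 of 24 within the Arid5a RIP.

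The same-numbered libraries showed little correlation: of 21 such pairs 1 had a correlation over 0.1 (range -0.13 to 0.20). The labels do not say whether they share a culture, and this check cannot settle it. With the replicate block the counts of members called were 1, 0, 0, 1 and 1, as without it. Depth limits the low members, such as *Orc1* and *Rfc5*, with 0 counts in the shallowest library.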
